A study of Homo sapiens with 10 samples.

Results

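The genes described here are the 8 members of the suppressor of cytokine signalling (SOCS) family, SOCS1 to SOCS7 and CISH. They were read by every probe set that the platform annotation gives to one of these genes alone, which made 25 of the 54613 probe sets that are not controls. SOCS1 and SOCS3 had 4 probe sets each, SOCS4 had 2, and CISH, SOCS2, SOCS5, SOCS6 and SOCS7 had 3 each. Older names of SOCS4, SOCS6 and SOCS7 were exchanged between these genes, so all 25 were named through the gene number. The series compared K562 cells (5 arrays) with the microvesicles that these cells shed (5 arrays), on total RNA from independent experiments labelled with biotin, with no treatment named in the labels. K562 is an established human line from chronic myeloid leukaemia that carries the BCR-ABL1 fusion kinase. Microvesicles are membrane-bound particles that carry RNA of the parent cell. All arrays come from this 1 line. No label ties a microvesicle preparation to the culture of the cell sample with its number, so a p-value here reflects variation among separate preparations of each kind and may partly be technical.

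SOCS proteins are feedback inhibitors of cytokine receptors that signal through JAK kinases and STAT transcription factors. Each has an SH2 domain, which binds phosphotyrosine, and a SOCS box, which recruits elongins B and C and a cullin to form a ubiquitin ligase. CISH, SOCS1, SOCS2 and SOCS3 are induced by STAT factors and act back on the same pathway, whereas SOCS4 to SOCS7 have long amino-terminal regions and have been tied more to receptor tyrosine kinase and insulin signalling. BCR-ABL1 keeps STAT5 active, and CISH and SOCS2 are known STAT5 targets.

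STAT factors bind the palindrome TTCNNNGAA, in which N is any base, and promoter windows of STAT-induced members are therefore shown. RefSeq windows (GRCh38.p14, 250 bases before to 50 after a start site) matched 5 of the 8 members, CISH, SOCS1, SOCS3, SOCS4 and SOCS6, in 6 windows. The CISH window, chr3:50611725-50612024 on the minus strand, and the upstream SOCS3 window, chr17:78360876-78361175 on the minus strand, are given because they differ in this motif, with TTCNNNGAA matches in capitals.
CISH: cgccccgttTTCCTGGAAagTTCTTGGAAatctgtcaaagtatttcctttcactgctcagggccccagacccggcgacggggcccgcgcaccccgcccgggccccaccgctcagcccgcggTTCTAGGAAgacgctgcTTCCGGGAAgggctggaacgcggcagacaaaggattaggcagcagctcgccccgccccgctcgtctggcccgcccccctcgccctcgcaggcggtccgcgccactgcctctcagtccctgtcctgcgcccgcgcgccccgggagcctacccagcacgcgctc
SOCS3: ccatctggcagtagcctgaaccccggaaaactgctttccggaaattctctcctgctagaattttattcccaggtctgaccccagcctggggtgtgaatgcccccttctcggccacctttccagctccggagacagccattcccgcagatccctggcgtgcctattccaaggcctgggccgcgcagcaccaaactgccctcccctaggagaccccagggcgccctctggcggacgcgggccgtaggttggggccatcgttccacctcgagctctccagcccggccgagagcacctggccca
The CISH window held 4 matches, TTCCTGGAA, TTCTTGGAA, TTCTAGGAA and TTCCGGGAA, which begin at -241, -230, -129 and -112 from the start site. The motif reads the same on both strands. Of 35116 windows of this length, 2689 (7.66%) held at least 1 match and 7 (0.0199%) held at least 4. The SOCS1, SOCS4 and SOCS6 windows and both SOCS3 windows held 0 matches, which says only that these letters are not in those windows. A match is a description of the letters and not evidence of binding.

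The arrays of cells and of microvesicles differed as a whole. Array medians were 4.08 to 4.12 in cells and 4.22 to 4.28 in microvesicles. The SD of the values of an array was 2.33 to 2.36 in cells and 1.89 to 1.99 in microvesicles. Pairs of arrays of one kind correlated across probe sets at 0.990 or more in cells and 0.911 or more in microvesicles (Pearson, genes being no independent replicates). For ACTB, the control probe set at the 3' end exceeded that at the 5' end by 2.39 ± 0.15 on cell arrays against 3.12 ± 0.34 on microvesicle arrays (SD, 5 arrays per kind, 2-sided exact permutation p = 0.00794, the smallest these numbers allow, adjusted p = 0.0106 over 4 array measures). For GAPDH it was 0.45 ± 0.06 against 0.62 ± 0.13 (the same test, adjusted p = 0.0159). A larger excess can mean lower RNA integrity. The part of RNA integrity in the results below was not tested. Of 17 probe sets for K562 markers, with means in cells from 3.0 to 12.28, 10 were above 6 in cells and 9 in microvesicles. Of these 17, 3 were higher and 7 lower in microvesicles (35.4% and 27.0% of all probe sets). The highest means in cells were those of TFRC and HBE1 probe sets. Among 38 probe sets for markers of T cells, B cells, monocytes, fibroblasts, epithelium and endothelium, 33 were below 6 in both groups. Their means ran from 1.85 to 9.42 in cells and from 2.51 to 8.01 in microvesicles, with no B cell or endothelial marker above 6. Those at 6 or more were of CD3D, CD3G, LYZ, COL1A1 and EPCAM. Of these 38, 25 were higher and 4 lower in microvesicles, against 35.4% higher and 27.0% lower of all probe sets. Dim probe sets rose over the whole array, with a median change of 0.58 at means below 3 and 0.48 at means between 3 and 4. The part of these markers in the SOCS results was not tested. The values are on the log2 scale from RMA, which gives no detection call, and fewer vesicles carrying a transcript cannot be told apart from less of it per vesicle.

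Members of the SOCS family changed in both directions. SOCS7 and SOCS3 were higher in microvesicles, while SOCS4, SOCS5 and SOCS6 were lower. SOCS2 was also lower, and the call of 203373_at and 203372_s_at depended on the scaling. Of the 25 probe sets, 16 passed the threshold (limma adjusted p under 0.05 over all 54613), 7 higher and 9 lower in microvesicles, against 62.4% of all probe sets passing, 35.4% higher and 27.0% lower. The share of members that passed is thus near that of the array as a whole. With each array centred on its median 15 passed, 4 higher and 11 lower (54.1%, 23.9% and 30.2% of all). After loess normalization, which removes the part of the array-wide change that depends on level, 12 passed, 6 higher and 6 lower (40.1%, 18.2% and 21.9% of all). After a second quantile normalization 12 passed, again 6 higher and 6 lower (37.3%, 18.8% and 18.5% of all). A change of at least 2-fold with a call was found in 4 higher and 4 lower members (9.96% and 18.0% of all). Both group means lay below the array medians in 3 members (43.1% of all). The median change of the members was -0.25 (0.27 over all probe sets), and 0.00 after loess (0.03 over all). With probe sets averaged per gene all 8 genes passed, SOCS1, SOCS3 and SOCS7 higher and the other 5 lower, where 70.6% of 19775 genes passed. With the brightest probe set of each gene 6 of the 8 passed, 2 higher and 4 lower, where 66.6% passed. Groups did not overlap in 11 members, 4 higher and 7 lower (24.0% and 22.0% of all probe sets).

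**Figure D1:**
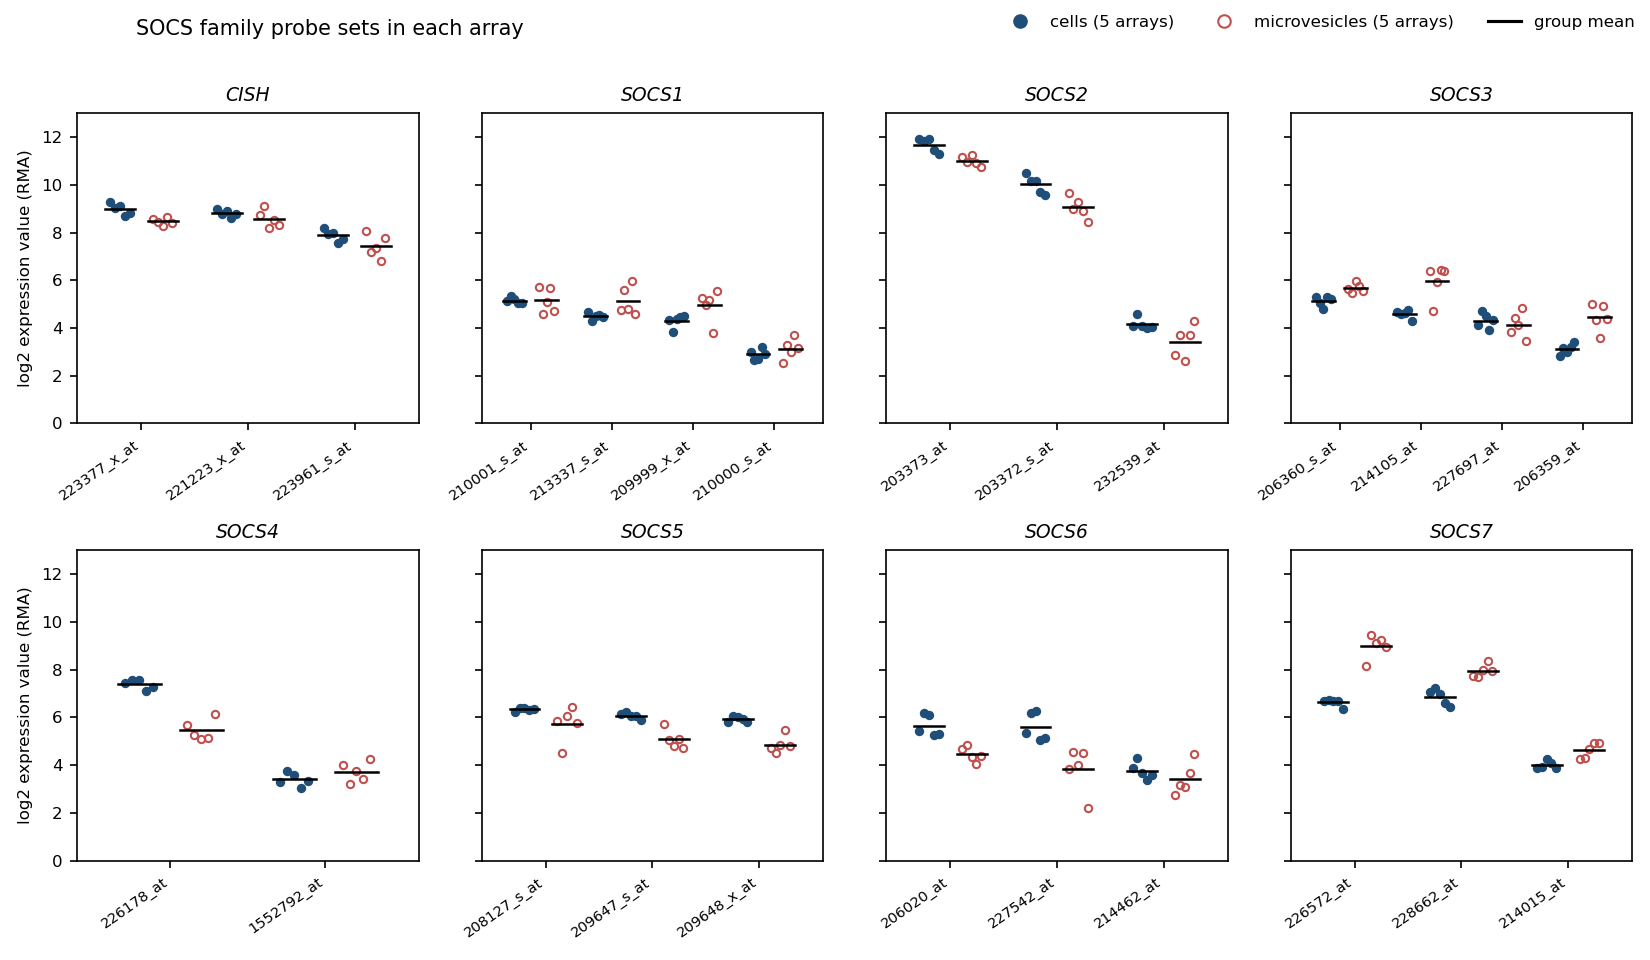
Log2 expression value (RMA) of each of the 25 SOCS family probe sets, a panel per gene, with 1 point per array for 5 cell arrays (filled) and 5 microvesicle arrays (open) and a line at each group mean. SOCS7 226572_at lies between 8.17 and 9.45 in microvesicles, above the cell arrays at 6.36 to 6.74, and SOCS4 226178_at lies between 5.10 and 6.15, below the cell arrays at 7.09 to 7.58.

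SOCS7, an adaptor-like member known to bind NCK1 and insulin pathway proteins, had the largest rise of the family in 226572_at, with all 3 of its probe sets higher in microvesicles. Probe set 226572_at read 6.69, 6.74, 6.68, 6.67 and 6.36 in cells replicates 1 to 5 and 8.17, 9.45, 9.12, 9.24 and 8.95 in microvesicles. Every microvesicle array lay above every cell array, with replicate 1 the lowest of the microvesicles. The change was 2.36 ± 0.22 (SE) on the log2 scale, 5.13-fold higher in microvesicles (limma adjusted p = 2.04e-06, n = 5 each), and 3.15 after loess. Probe set 228662_at stood at 7.05, 7.23, 7.0, 6.62 and 6.44 in cells and 7.75, 7.70, 7.98, 8.35 and 7.96 in microvesicles, again without overlap. It rose by 1.08 ± 0.20 (limma adjusted p = 0.000459) and by 1.89 after loess. The remaining and dimmest probe set, 214015_at, went from 4.01 ± 0.17 to 4.62 ± 0.33 (SD, n = 5 each), with a change of 0.61 ± 0.19 (limma adjusted p = 0.0122). It overlapped between the groups and did not pass after loess (0.42, limma adjusted p = 0.0852) or with arrays centred on their median (0.45, 0.0529).

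SOCS3, which inhibits JAK kinases while bound to receptors of the gp130 type, was higher in microvesicles in 3 of 4 probe sets, none of which exceeded 5.32 in a cell array. Probe set 206359_at read 2.83, 3.18, 3.0, 3.20 and 3.40 in cells and 5.02, 4.35, 3.59, 4.92 and 4.38 in microvesicles. The groups did not overlap, although the cell values lay under the array medians and are not known to exceed background. Its change was 1.33 ± 0.25 (limma adjusted p = 0.000539), and 0.98 after loess. Probe set 214105_at read 4.68, 4.57, 4.61, 4.74 and 4.28 in cells and 6.38, 4.70, 5.93, 6.44 and 6.41 in microvesicles, where replicate 2 fell within the cell range and the other 4 lay above it. It rose by 1.39 ± 0.29 (limma adjusted p = 0.00125), and by 1.64 after loess. The smallest rise was that of 206360_s_at, from 5.32, 5.07, 4.78, 5.28 and 5.21 in cells to 5.63, 5.47, 5.95, 5.75 and 5.56 in microvesicles, without overlap. Its change of 0.54 ± 0.17 (limma adjusted p = 0.0135) was 0.38 and did not pass with arrays centred on their median (limma adjusted p = 0.0687). It was 0.86 after loess and 0.93 after a second quantile normalization (limma adjusted p = 0.000799 and 0.000793). The fourth, 227697_at, did not pass (-0.18, 95% interval -0.71 to 0.35).

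SOCS1, the other member with a kinase inhibitory region, gave 1 call of 4 probe sets. Probe set 213337_s_at read 4.65, 4.29, 4.52, 4.55 and 4.47 in cells and 4.77, 5.59, 4.78, 5.97 and 4.59 in microvesicles. Replicates 2 and 4 of the microvesicles were high, and replicate 5 lay inside the cell range. The change was 0.64 ± 0.25 (limma adjusted p = 0.0381), and the call was lost in 7 of the 10 fits that leave out an array, each of cells replicates 1 to 5 and microvesicles replicates 2 and 4 (limma adjusted p from 0.0529 to 0.0869). It was also lost with arrays centred on their median (0.48, limma adjusted p = 0.112) and after a second quantile normalization (0.77, 0.0709). After loess it passed narrowly (0.64, limma adjusted p = 0.0477). For 209999_x_at the change was 0.64 ± 0.28 and did not pass (limma adjusted p = 0.0608), but it passed without microvesicles replicate 4 (0.92, limma adjusted p = 0.00131), the 1 microvesicle array below all cell arrays. The brightest, 210001_s_at, stood at 5.15 ± 0.13 in cells and 5.17 ± 0.52 in microvesicles (n = 5 each, SD), with a difference of 0.02 (95% interval -0.47 to 0.51). The dimmest, 210000_s_at, had a difference of 0.25 (95% interval -0.21 to 0.71), which was -0.26 after loess.

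SOCS2, which restrains growth hormone signalling, was lower in microvesicles in all 3 probe sets, with 2 of the calls depending on the scaling and the other on single arrays. Probe set 203373_at read 11.94, 11.82, 11.90, 11.47 and 11.29 in cells and 11.18, 10.97, 11.26, 10.93 and 10.75 in microvesicles. The groups did not overlap, but cells replicate 5 lay close above microvesicles replicate 3. It fell by 0.66 ± 0.18 on the log2 scale, a level 1.59-fold lower (limma adjusted p = 0.00691). Probe set 203372_s_at read 10.50, 10.17, 10.16, 9.70 and 9.58 in cells and 9.64, 8.99, 9.28, 8.91 and 8.44 in microvesicles, with microvesicles replicate 1 inside the cell range. Its change was -0.97 ± 0.24 (limma adjusted p = 0.00386). Neither bright probe set passed after loess (-0.27 and -0.35, limma adjusted p = 0.262 and 0.231) or after a second quantile normalization (-0.31 and -0.41, 0.199 and 0.18). The third, 232539_at, was dim, at 4.16 ± 0.23 in cells and 3.43 ± 0.67 in microvesicles (n = 5 each, SD). Its change was -0.73 ± 0.28 (limma adjusted p = 0.0346). The call, though not the direction, was lost without any of cells replicates 1, 2, 3 or 5 (changes of -0.63 to -0.76) or microvesicles replicates 1 or 3 (-0.59 and -0.53), with limma adjusted p from 0.05 to 0.0886. SOCS2-AS1, an antisense neighbour looked up after the SOCS2 values were seen, had a difference of -0.59 ± 0.31 that did not pass (limma adjusted p = 0.106).

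CISH, the founding member, which competes with STAT5 for receptor docking sites, had 1 of 3 probe sets past the threshold. Its promoter window is the one with 4 STAT motifs given above. Probe set 223377_x_at read 9.27, 9.04, 9.13, 8.68 and 8.82 in cells and 8.58, 8.43, 8.28, 8.66 and 8.38 in microvesicles. The groups did not overlap, but cells replicate 4 and microvesicles replicate 4 differed by little. Its change of -0.52 ± 0.17 (limma adjusted p = 0.0162) did not pass without cells replicate 1 (limma adjusted p = 0.052) and was 0.19 after loess. Probe sets 221223_x_at and 223961_s_at overlapped between the groups, with differences of -0.25 (95% interval -0.66 to 0.17) and -0.45 (95% interval -0.95 to 0.04). The latter passed with arrays centred on their median (-0.61, limma adjusted p = 0.0406) and without microvesicles replicate 1 (-0.61, 0.0245). All 3 had positive signs after loess and after a second quantile normalization, from 0.18 to 0.48, none past the threshold, so no direction is given for CISH.

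SOCS4, which is linked to the turnover of the epidermal growth factor receptor, was lower in microvesicles in 1 of 2 probe sets, with the largest fall among the members in the deposited values but not after loess or a second quantile normalization, where SOCS6 227542_at fell further. Probe set 226178_at read 7.44, 7.58, 7.57, 7.09 and 7.27 in cells and 5.68, 5.27, 5.10, 5.13 and 6.15 in microvesicles. All microvesicle arrays lay below all cell arrays, with replicate 5 the highest. The change was -1.92 ± 0.22, a level 3.80-fold lower (limma adjusted p = 9.05e-06), and -1.20 after loess. The dim probe set 1552792_at, at 3.40 in cells and 3.73 in microvesicles, below the array medians in both, did not pass (0.33, 95% interval -0.15 to 0.80, and -0.07 after loess).

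SOCS5, described as a regulator of interleukin 4 and epidermal growth factor receptor signalling, was lower in microvesicles in 2 of 3 probe sets. Probe set 209648_x_at read 5.81, 6.08, 6.02, 5.92 and 5.80 in cells and 4.71, 4.49, 4.83, 5.48 and 4.81 in microvesicles. Probe set 209647_s_at read 6.16, 6.21, 6.06, 6.06 and 5.88 in cells and 5.72, 5.06, 4.81, 5.11 and 4.72 in microvesicles. Neither overlapped between the groups. They changed by -1.06 ± 0.19 and -0.99 ± 0.20 (limma adjusted p = 0.000406 and 0.000828). After loess they stood at -0.75 and -0.58 and still passed. The brightest, 208127_s_at, varied little in cells (6.34 ± 0.07) and widely in microvesicles (5.73 ± 0.73, SD, n = 5 each), from 4.50 in replicate 2 to 6.43 in replicate 4. Its difference of -0.61 ± 0.28 did not pass (limma adjusted p = 0.0724) and was 0.00 after loess. It passed without microvesicles replicate 4 (-0.79, limma adjusted p = 0.0247), and without microvesicles replicate 2 the difference was -0.31.

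SOCS6, which binds the receptor kinase KIT and insulin receptor substrates, was lower in microvesicles in 2 of 3 probe sets. Probe set 206020_at read 5.43, 6.17, 6.10, 5.26 and 5.30 in cells and 4.70, 4.83, 4.35, 4.05 and 4.37 in microvesicles. In cells, replicates 2 and 3 were higher than the others, and every microvesicle array was lower still. Its change was -1.19 ± 0.23 (limma adjusted p = 0.000682). Probe set 227542_at read 5.36, 6.17, 6.26, 5.04 and 5.12 in cells and 3.85, 4.55, 3.98, 4.51 and 2.20 in microvesicles. Cells replicates 2 and 3 were again the highest, and microvesicles replicate 5 lay far below the rest. The change was -1.77 ± 0.40 (limma adjusted p = 0.00217), and -1.37 without that array. After loess these probe sets changed by -1.07 and -1.82. The dim 214462_at did not pass (-0.33, 95% interval -0.95 to 0.30), and passed without microvesicles replicate 5 (-0.59, limma adjusted p = 0.0404).

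**Figure D2:**
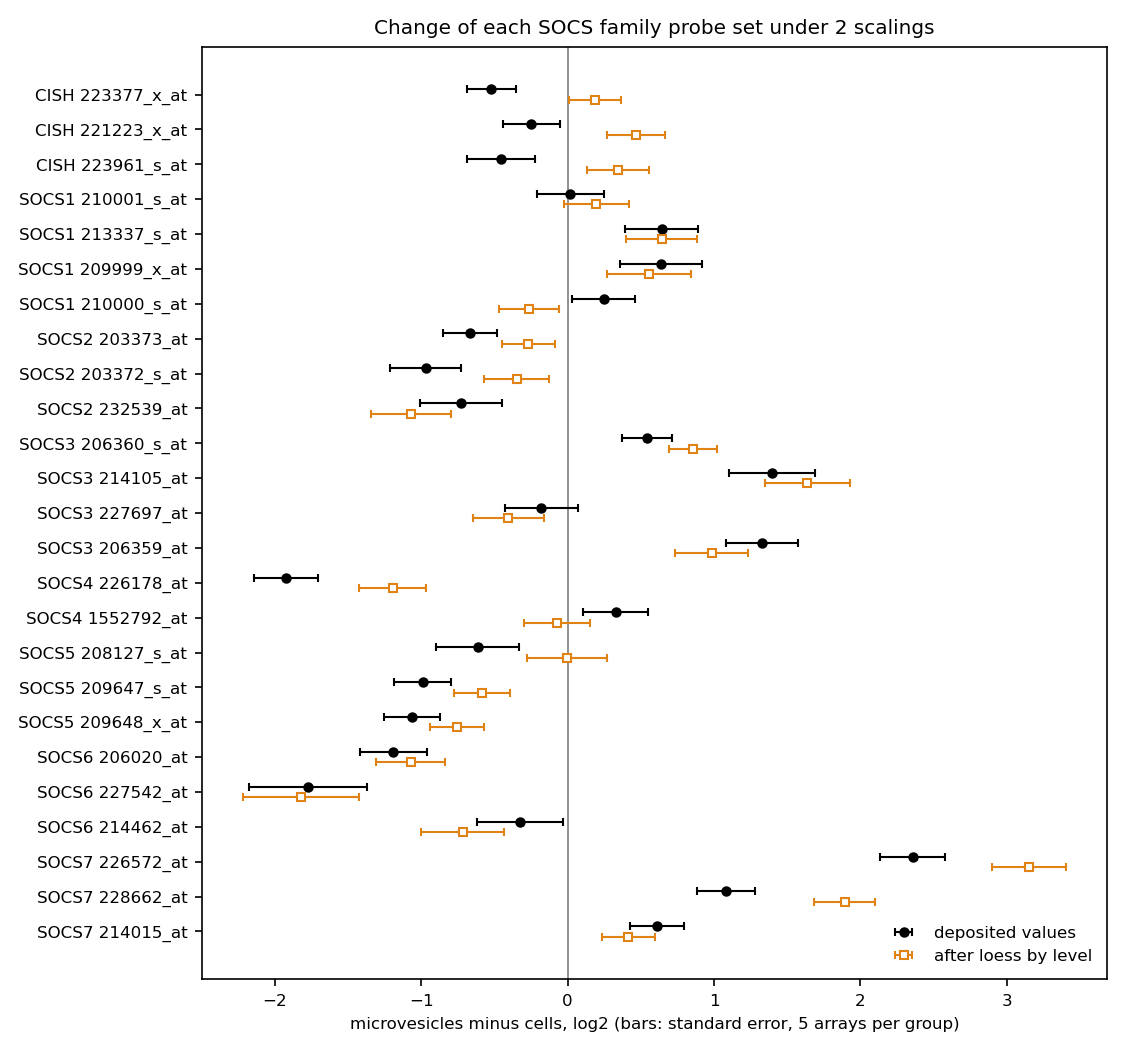
Change of each SOCS family probe set, microvesicles minus cells on the log2 scale with its standard error (5 arrays per group), in the deposited values (circles) and after loess normalization by level (squares). SOCS7 226572_at moves from 2.36 to 3.15 and SOCS4 226178_at from -1.92 to -1.20, while the 3 CISH probe sets cross 0.

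Calls that did not depend on the scaling were found for some probe sets of SOCS3, SOCS4, SOCS5, SOCS6 and SOCS7, and for 1 dim probe set of SOCS2. Under the deposited values, median centring, a second quantile normalization and loess, 10 of the 25 probe sets were called the same way, 4 higher and 6 lower, against 28.8% of all probe sets (12.1% higher and 16.7% lower). Those higher were 226572_at and 228662_at of SOCS7 and 214105_at and 206359_at of SOCS3. Those lower were 226178_at of SOCS4, both named probe sets of SOCS5 and of SOCS6, and 232539_at of SOCS2.

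Changes over the whole array depended on level. The median change was -1.01 for the 3015 probe sets whose mean of the 10 arrays lay between 7 and 8 (quartiles -1.65 and -0.36), and 0.48 for the 12254 between 3 and 4 (quartiles 0.09 and 0.82). SOCS7 226572_at and 228662_at, both with a mean between 7 and 8, thus rose where most probe sets were lower. CISH 223377_x_at at -0.52 lay above the median change of -0.79 for probe sets between 8 and 9. SOCS2 203373_at at -0.66 lay below the lower quartile of -0.48 for those above 11. The falls of SOCS5 209647_s_at (-0.99) and 209648_x_at (-1.06) and SOCS6 206020_at (-1.19) lay within the quartiles for means between 5 and 6. These quartiles were -1.36 and 0.50. SOCS4 226178_at at -1.92 lay below the lower quartile of -1.72 for means between 6 and 7. So did SOCS6 227542_at at -1.77, against -0.61 for means between 4 and 5.

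**Figure D3:**
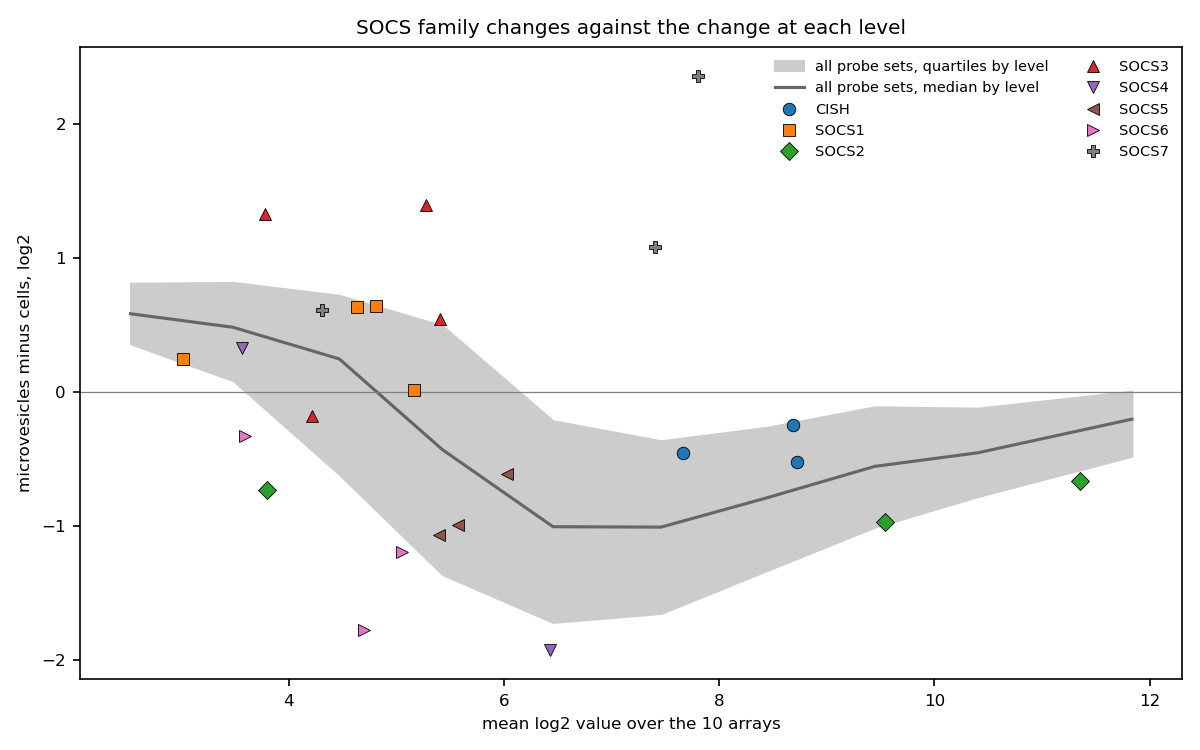
Change (microvesicles minus cells, log2) of the 25 SOCS family probe sets against their mean log2 value over the 10 arrays, over the median (line) and quartiles (band) of all 54613 probe sets by level. SOCS7 226572_at at 2.36 lies far above the band, whose upper edge is -0.36 for means between 7 and 8.

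Probe sets of one gene read different stretches of its transcripts, and whether they changed by different amounts was tested directly, on the difference of the 2 probe sets in each array. Of the 28 such pairs within the family, 6 differed (limma adjusted p under 0.05 over 42435 pairs of the array), against 37.2% of all pairs, and 9 after loess (34.8% of all pairs). The 6 lay in SOCS3, SOCS4 and SOCS7, and the 9 after loess also in SOCS1 and SOCS5. SOCS7 226572_at rose by 1.28 ± 0.26 more than 228662_at (limma adjusted p = 0.0015) and by 1.75 ± 0.26 more than 214015_at. SOCS4 226178_at and 1552792_at differed by -2.25 ± 0.22 (limma adjusted p = 4.34e-06), and by -1.12 after loess (limma adjusted p = 0.00233). The dim one carried no fall, but lay below the array medians in both groups. Within SOCS3, 227697_at differed from 214105_at and from 206359_at by 1.57 ± 0.42 and 1.51 ± 0.33 in size (limma adjusted p = 0.0088 and 0.0025), so the rise held for some of its probe sets and not for all. The third SOCS3 pair, 206360_s_at against 214105_at, differed by -0.85 ± 0.32 (limma adjusted p = 0.0471, and 0.0696 after loess). For the pair of bright SOCS2 probe sets the difference was 0.30 (95% interval -0.16 to 0.77), and for the pair of SOCS5 probe sets that fell it was 0.07 (95% interval -0.51 to 0.66).

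The spread of the members differed between cells and microvesicles. Their median SD was 0.22 in cells and 0.45 in microvesicles (0.15 and 0.46 over all probe sets), and it was larger in microvesicles for 20 of the 25 (94.0% of all probe sets). In cells, replicates 4 and 5 both lay below replicates 1 to 3 in 13 of the 25 (14.9% of all probe sets), a count made after the values were seen. These 13 were all probe sets of CISH, SOCS2 and SOCS6, 226572_at and 228662_at of SOCS7, 226178_at of SOCS4 and 210001_s_at of SOCS1. The labels name no difference between these cell arrays. The ACTB 3' minus 5' value was 2.57 and 2.54 on these arrays and 2.26 to 2.30 on the other 3, and its part in the order of the values was not tested. With cells replicates 4 and 5 left out, 5 members were higher and 8 lower (22.8% and 23.1% of all probe sets), and 213337_s_at of SOCS1 (limma adjusted p = 0.111), 232539_at of SOCS2 (0.0727) and 214015_at of SOCS7 (0.0643) no longer passed.

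The rest of the pathway was read from 6 lists, of which 93 of 99 genes had a probe set here, 246 in all. Of these 65 were higher and 92 lower in microvesicles (38 and 101 with arrays centred on their median, 51 and 83 after loess), with a median change of -0.04. Of all probe sets 35.4% were higher and 27.0% lower (23.9% and 30.2% with arrays centred on their median, 18.2% and 21.9% after loess). With dim probe sets left out these shares were 18.4% and 55.9%. JAK kinases and STAT factors gave 13 falls and 3 rises among 26 probe sets, with a median of -0.50, and 11 falls and 3 rises after loess. JAK2, the kinase of the erythropoietin receptor and a target of SOCS1 and SOCS3, fell in all 3 of its probe sets, by 2.51 ± 0.24 in 205842_s_at (limma adjusted p = 2.21e-06), 1.48 ± 0.26 in 205841_at and 1.38 ± 0.23 in 1562031_at. JAK1, its partner in gp130 and interferon receptors, fell in 3 of 5, by 1.67 ± 0.21 in 201648_at (-0.86 after loess). STAT5B fell in 4 of 5, by 1.35 ± 0.26 in 212550_at (-0.70 and not past the threshold after a second quantile normalization), but its brightest, 212549_at, did not pass (-0.19 ± 0.16) and was 0.56 after loess, where it passed (limma adjusted p = 0.011). STAT5A did not pass (-0.40 ± 0.17, limma adjusted p = 0.0524, and 0.40 after loess). It passed in opposite directions with arrays centred on their median (-0.56, limma adjusted p = 0.0135) and after a second quantile normalization (0.50, 0.0437).

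Among 72 probe sets of cytokine and growth factor receptors 20 rose and 25 fell, with a median of 0.00 (13 and 27 with arrays centred on their median, 9 and 25 after loess). With dim probe sets left out 3 rises and 20 falls remained, where 18.4% of all probe sets kept were higher and 55.9% lower. The interferon gamma receptor gene IFNGR1 fell in 2 of 3 probe sets, by 3.79 ± 0.25 in 211676_s_at (limma adjusted p = 1.11e-07), and rose in the other (0.61, and 0.08 after loess). The gp130 gene IL6ST, whose product SOCS3 binds, changed by -3.35 ± 0.24 in 212195_at (limma adjusted p = 2e-07). But of its 7 probe sets 2 fell, 2 rose (0.77 and 0.65) and 3 did not pass. These 2 rises were 0.22 and 0.09 after loess. The erythropoietin receptor gene EPOR was as mixed. Of its 5 probe sets 2 rose, 1 fell (-1.22) and 2 did not pass. The larger rise, 0.79 ± 0.27 in 396_f_at (limma adjusted p = 0.0225), did not pass with arrays centred on their median (limma adjusted p = 0.0632).

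Ubiquitin ligase partners of the SOCS box gave 4 rises and 17 falls among 32 probe sets, with a median of -0.76. There were 1 rise and 19 falls where arrays were centred on their median and 11 rises and 16 falls after loess. With dim probe sets left out 4 rises and 15 falls remained, where 18.4% of all probe sets kept were higher and 55.9% lower. CUL5, the cullin of SOCS box ligases, fell in 3 of 4 probe sets and CAND1, a cullin exchange factor, in 5 of 7, with changes of -2.24 ± 0.19 in 203531_at and -2.75 ± 0.28 in 208838_at (limma adjusted p = 9.26e-07 and 4.44e-06). ELOB, the elongin B gene, rose in both probe sets, by 0.61 ± 0.15 in 200085_s_at (limma adjusted p = 0.00389). The NEDD8-conjugating enzyme gene UBE2F rose in 2 of 4, by 0.49 ± 0.16 in 225787_at (limma adjusted p = 0.0158). That rise did not pass with arrays centred on their median (0.33, limma adjusted p = 0.0907). It was 1.19 after loess and 1.22 after a second quantile normalization (limma adjusted p = 0.000121 and 0.000144). Other SOCS box genes gave 25 rises and 9 falls among 50 probe sets, with a median of 0.48 (14 and 10 with arrays centred on their median, 14 and 7 after loess). With dim probe sets left out 8 rises and 9 falls remained, so most of these rises were in dim probe sets. ASB1 rose in 2 of 3 probe sets, by 2.82 ± 0.17 in 212818_s_at, and ASB10 in 1 of 3, by 1.44 ± 0.20 in 1553039_a_at. WSB1 fell in 4 of 5, with -2.95 ± 0.28 in 201294_s_at, and ASB7 in both, with -1.11 ± 0.27 in 226513_at. The last did not pass after loess (-0.47, limma adjusted p = 0.155) or a second quantile normalization (-0.48, 0.233).

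Other negative regulators of the pathway gave 9 rises and 18 falls among 41 probe sets, with a median of -0.19 (5 and 19 with arrays centred on their median, 6 and 17 after loess). The phosphatase gene PTPRC, which encodes CD45, fell in 4 of 5 probe sets, with -3.43 ± 0.28 in 207238_s_at (limma adjusted p = 6.01e-07). The SUMO ligase gene PIAS1 fell in all 3, with -2.22 ± 0.29 in 217863_at (limma adjusted p = 2.92e-05). Its relative PIAS2 moved both ways, with 3 of 9 probe sets higher, the most 1.05 ± 0.18 in 214442_s_at (limma adjusted p = 0.000352), and 4 lower, the most -1.57. STAT5 target genes gave 4 rises and 10 falls among 25 probe sets (2 and 11 with arrays centred on their median, 8 and 7 after loess) and a median of -0.16, which was 0.06 after loess. Of these the cytokine gene OSM rose in both probe sets, by 1.30 ± 0.18 in 214637_at. The survival gene MCL1 fell in 3 of 6, with -1.63 ± 0.20 in 200798_x_at, and the helix-loop-helix gene ID1 in its only one, 208937_s_at, with -1.90 ± 0.30. The share of probe sets that passed was 56.0% to 68.0% over the 6 lists, near the 62.4% of the array.

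**Figure D4:**
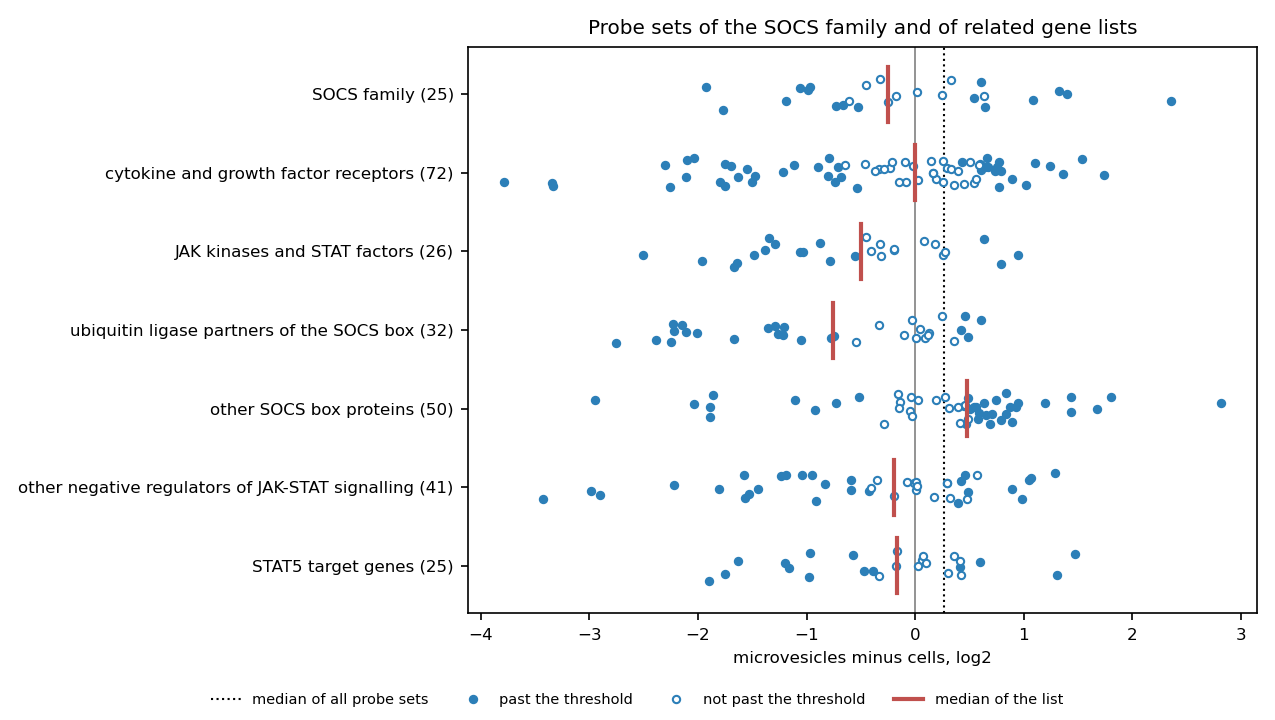
Change (microvesicles minus cells, log2) of every probe set of the SOCS family and of 6 related lists (number of probe sets in brackets), filled where past the threshold, with the median of each list (bar) and of all probe sets (dotted line, 0.27). The SOCS family spans -1.92 to 2.36 with a median of -0.25, and other SOCS box proteins have the highest median, 0.48. With dim probe sets left out, that list has 8 rises and 9 falls.

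Genes whose pattern over the 10 arrays lay closest to that of the brightest probe set of each member were found by the root mean square difference after subtraction of each cell mean. The closest single gene was MIR200CHG for SOCS7 (0.234), TSC22D1 for SOCS4 (0.148), SPAG9 for SOCS6 (0.0968), DNAJC1 for SOCS2 (0.102), CEP41 for SOCS3 (0.0934), KIF5A for SOCS1 (0.154) and ZNF653 for SOCS5 (0.158). For CISH, after an uncharacterised locus, it was ETV5 (0.131). SOCS2 was followed by SWT1 (0.105) and FOXO3 (0.110), and SOCS7 by ARID3A (0.241) and NAT8L (0.255).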

How the data were processed

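Per the submitters' processing notes, the authors made the deposited log2 expression values per probe set with RMA, 1 column per array. Neither its version nor its settings could be read from the labels. RMA scales arrays to each other, so values compare the makeup of the RNA, not its amount. The deposited arrays of cells and of microvesicles still differed in median and SD. Precision is set by the 5 arrays in each group.

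Of 54630 rows, 17 control probe sets were left out. Of the rest, 41091 have 1 gene symbol, 1801 several and 11721 none. Symbols came from the platform annotation and were updated through gene numbers. Each of the 54613 probe sets was fitted with limma 3.58.1 in R 4.3.3 (lmFit and eBayes, 1 mean per group, 2-sided, no filter on dim probe sets), with Benjamini-Hochberg adjustment over all of them. Changes are microvesicles minus cells ± SE. Pairs of probe sets of 1 gene were fitted the same way on their difference per array. The fit was tested on simulated data with 50 probe sets changed at each of 4 sizes. It recovered 1 of 50 changes of 0.5 on the log2 scale, 22 of 1, 44 of 2 and 49 of 3, with 4 false calls. Far fewer probe sets changed there than passed in these data, so the adjusted threshold was not alike.

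The members, lists and alternatives were chosen with earlier results of these data known. The rule for named genes took every member, JAK1, JAK2, STAT5A and STAT5B, and up to 2 rises and 2 falls per list among probe sets past the threshold with a higher group mean of at least 6. For each member's brightest probe set it added the 3 closest probe sets of other genes. ELOC was named outside this rule, beside ELOB. Alternatives covered scaling, the replicate number as a block, a dim filter (a group mean of at least 5), a variance trend, array weights, 1 row per gene and leaving out arrays. Whether the replicate number paired the samples was not settled, and the main fit took the groups as unpaired. Of 5 same-numbered pairs, 1 had a correlation of deviations over 0.1 (range -0.03 to 0.11). Yet 4 of 5 cell arrays correlated best with the microvesicle array of their own number.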

Additional observations from a re-analysis of the deposited data

Results flagged for a closer look

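In 3 of 50 groups of 5 arrays of a member probe set, and in 6 of 112 groups with the other named probe sets added, 1 array lay far from the others by Dixon's test of the gap over the range. Chance flags about 1 in 20 groups. SOCS1 209999_x_at was low in cells replicate 2, at 3.85, with the nearest cell array at 4.34. SOCS2 232539_at was high in cells replicate 2, at 4.57 against 4.10. SOCS7 226572_at was low in cells replicate 5, at 6.36 against 6.67, which left the groups apart by far more than that gap. JAK1 201648_at was high in cells replicate 4, at 8.36 against 7.89, and JAK1 1552610_a_at was high in microvesicles replicate 2, at 4.86 against 3.45. ASB1 212818_s_at was high in cells replicate 5, at 6.52 against 6.34.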

How the results depend on the processing

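The 7 higher and 9 lower member probe sets became 4 higher with arrays centred on their median, 2 higher and 4 lower with the brightest probe set of each of the 8 genes (66.6% of all genes passing), and 3 higher and 5 lower with probe sets averaged per gene (70.6%), the last 2 settings counting genes. Over all probe sets the 19318 higher became 10282 after a second quantile normalization, 9958 after loess and 4242 without dim probe sets, and 12457 without cells replicates 4 and 5 together, a choice made after seeing the data. For the pathway lists the 65 higher became 38 with median centring, 22 without dim probe sets and 31 without those cell arrays. Leaving out 1 array gave 6 to 7 higher and 7 to 10 lower members, 15790 to 19710 higher and 13591 to 14990 lower probe sets, 48 to 70 higher and 85 to 96 lower in the lists, and 5 to 9 pairs.

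Signs reversed for CISH 223377_x_at (0.19), 221223_x_at (0.47) and 223961_s_at (0.35), SOCS1 210000_s_at (-0.26) and SOCS4 1552792_at (-0.072) after loess. After a second quantile normalization they reversed for the same CISH probe sets (0.18, 0.48 and 0.43), SOCS1 210000_s_at (-0.19) and SOCS5 208127_s_at (0.0083). SOCS1 210001_s_at, at 0.02, turned to -0.14 with median centring, -0.018 with array weights and -0.058 without cells replicates 4 and 5, and ran from -0.12 to 0.16 when 1 array was left out (below 0 without cells replicate 4, -0.0092, or 5, -0.012, or microvesicles replicate 1, -0.12, or 4, -0.11). The cause of these turns was not tested.

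With the replicate block 8 members were higher and 9 lower (34.3% and 26.7% of all probe sets), SOCS1 209999_x_at being added (limma adjusted p = 0.048), and 6 pairs differed. Whether the numbers paired the samples was not settled, since the correlations were low but 4 of 5 cell arrays correlated best with their own number. The filter on dim probe sets kept 17 of the 25 members. With no detection call, the size of a change is uncertain where a group mean lies near or under the array median.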
